A study of Mus musculus with 12 samples.

Results

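A long run of neighbouring transcripts in the deposited files had lower RNA levels in CHD8 knockout cells than in the other cells of the series. The run covers data rows 47445 to 49838, counted from 1, and reaches from uc009ktq.2 to uc009nwt.1. It holds 2394 of the 55419 transcripts, or 4.32%. It was chosen from the median fold changes of blocks of neighbouring transcripts, which lay more than 0.25 below the other rows in KO against WT and close to 0 in HET against WT, so its shift between genotypes is given below as a description, with no test of the stretch. Counts of members called between genotypes come from a fit over all transcripts and are a description too. The comparisons were made in mouse embryonic stem cells (ESC), kept in 2i medium, and in neural progenitor cells (NPC) derived from them. In each cell type the cells carried the CHD8_KO genotype (both copies altered, written KO here), the CHD8_HET genotype (1 copy altered, HET) or the WT genotype, which makes 6 groups of 2 libraries, or 12 libraries. How many lines or clones carry each genotype is not given in the labels, nor whether a group's libraries are of separate cultures, so their spread may be technical.

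CHD8 is a chromatin remodeller of the CHD family of helicases, which use ATP to move nucleosomes, and mutations in its gene are known in autism. A second background fact bears on how a run of neighbouring transcripts can be described. RNA output of most genes follows the number of their gene copies, and cultured mouse ESC are known to gain or lose chromosomes. A segment present in 2 copies in one line and in 3 copies in another is then read at 66.7% of the level, a log2 difference of -0.58, written log2(2/3) below. This value serves only as a yardstick. DNA copy number was not measured in these libraries, and its part in the shift was not tested.

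Total estimated counts ran from 9089955 to 14766212 in the KO libraries, from 9731881 to 13432274 in the HET libraries and from 9062447 to 13150215 in the WT libraries. In ESC the KO libraries were deeper than the WT libraries, and in NPC they were shallower. The transcript identifiers could not be paired with gene names (0 matched the tables at hand), so the level of Chd8 and the markers of ESC and NPC were not checked and the transcripts are described by position, level and length. The identifiers run nearly in order along the rows, with 59 steps down among the 2041 that start with uc009, and 353 later identifiers are set between them. What the row order follows is not stated. Of the 2394 transcripts, 320 had no counts in any library. A further 3 could not be told apart from transcripts outside the stretch, and their merged counts were set with the other rows. That left 2391, of which 1470 (61.5%) passed the filter on low counts and were tested, and 921 did not. The shift was taken over the 1000 of them with a mean CPM (counts scaled to a common library size) of at least 2, against 18918 such transcripts in all other rows. Isoforms of a gene share reads in estimated counts, so neighbouring transcripts are not independent of each other.

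The level of the stretch separated the KO libraries from all others. For each library the level is the median, over the 1000 transcripts, of log2 CPM relative to the mean of the 12 libraries, less the same median over the other rows. In KO ESC this level was -0.35 and -0.37, while it was 0.085 and 0.11 in HET ESC and 0.22 and 0.21 in WT ESC. In NPC the level was -0.31 and -0.28 in KO, 0.10 and 0.12 in HET and 0.18 and 0.18 in WT. The 4 KO libraries lay below the other 8, and the HET libraries lay a little below WT in each cell type, with no overlap between genotypes. Within groups the SD was 0.0026 to 0.019 (n = 2 each), with a pooled value of 0.013. In bulk RNA, fewer cells of a type and less RNA per cell cannot be told apart.

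**Figure D1:**
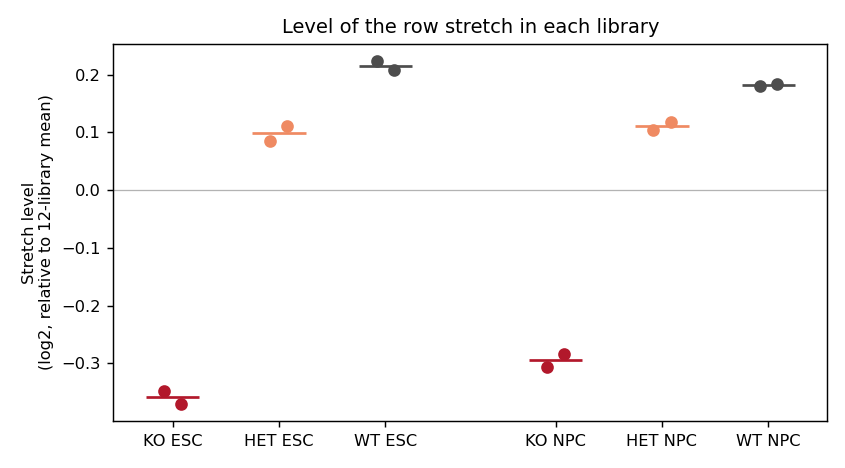
Level of the stretch in each of the 12 libraries (vertical axis, log2, relative to the mean of the libraries and to the other rows), by genotype and cell type (horizontal axis). Points are libraries and lines are group means; the KO libraries sit between -0.37 and -0.28, and all other libraries between 0.085 and 0.22.

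The stretch reached 67.2% of the WT ESC level in KO ESC, and 70.5% of the WT NPC level in KO NPC. These are shifts of -0.57 and -0.50 on the log2 scale, and they differ from log2(2/3) by 0.011 in ESC and by 0.081 in NPC. Each shift is a median log2 fold change from the edgeR fit over the 12 libraries, -0.52 over the stretch against 0.053 over the other rows in ESC, and -0.50 against 0.0046 in NPC. Single libraries gave much the same. Over the 4 pairs of a KO with a WT library, on log2 CPM with a prior count of 2, the shift ran from -0.56 to -0.52 in ESC and from -0.49 to -0.47 in NPC. Replicates of a group differed by -0.029 to 0.022 in the same measure. The ESC and NPC comparisons have no library in common, but the NPC were derived from the ESC. The part of sequencing depth in the shift was not tested.

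The median of the stretch lay a little below WT in HET. HET ESC stood 0.10 below WT ESC and HET NPC 0.092 below WT NPC on the log2 scale, which is 93.3% and 93.9% of the WT level and 17.5% and 18.1% of the KO shift. The KO and HET comparisons of a cell type share its WT libraries, so these shares are not independent of the KO shift. All 4 pairs of libraries agreed in sign in each cell type. They ran from -0.12 to -0.080 in ESC and from -0.10 to -0.061 in NPC. These pairs cross the same libraries and are not independent of each other. With only the neighbouring rows as baseline the HET shift was smaller, at -0.074 in ESC and -0.055 in NPC. KO minus HET was -0.45 in ESC (pairs from -0.45 to -0.42) and -0.40 in NPC (pairs from -0.41 to -0.38). The stretch was chosen as low in KO and close to WT in HET, so a gap of this kind follows from that choice.

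The summed counts showed the same order. The stretch held 2.80% and 2.39% of all estimated counts in KO ESC, 3.74% and 3.52% in HET ESC and 4.21% and 4.07% in WT ESC. It held 3.50% and 3.42% in KO NPC, 4.13% and 4.48% in HET NPC and 4.95% and 4.98% in WT NPC. No value of one genotype reached into the range of another within a cell type. The log2 ratio of these sums to the sums of the other rows was -0.70 for KO against WT in ESC (pairs from -0.85 to -0.56) and -0.54 in NPC (pairs from -0.57 to -0.52). For HET against WT it was -0.20 in ESC and -0.22 in NPC, larger than the median shift. Sums weigh abundant transcripts most: 15 members above 1% of the summed CPM held 25.8% of it, and without them the KO ratios were -0.71 and -0.56. The 2 members with the highest mean CPM were uc009mnp.1 and uc009kvb.2. For uc009mnp.1 the level was 1026 and 1042 CPM in KO ESC, 1203 and 1379 in HET ESC and 1627 and 1278 in WT ESC, and it was 1114 and 1560 CPM in KO NPC, 1468 and 1107 in HET NPC and 2079 and 1601 in WT NPC. The KO libraries of this transcript lay below both WT libraries in each cell type, with log2 fold changes of -0.49 in ESC and -0.46 in NPC. uc009kvb.2 had 795 and 650 CPM in KO ESC against 1086 and 481 in WT ESC, which overlap, and 1262 and 1160 CPM in KO NPC against 1659 and 1993 in WT NPC, which do not.

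The fold changes of the stretch were displaced as a whole, with nearly the width of those in the other rows. In KO ESC the middle 50% of the transcripts lay between -0.90 and -0.16, a width of 0.74, against -0.34 to 0.46 and a width of 0.80 in the other rows. In KO NPC they lay between -0.83 and -0.16, a width of 0.67, against -0.38 to 0.37 and a width of 0.74 in the other rows. Below 0 were 83.3% of the stretch in KO ESC and 82.0% in KO NPC, against 46.0% and 49.5% of the other rows. Taken relative to the median of the other rows, 36.3% of the stretch in KO ESC and 38.1% in KO NPC lay within 0.25 of log2(2/3), while 18.4% and 21.8% lay within 0.25 of 0. For the other rows these shares were 17.7% and 16.4% near log2(2/3) and 33.8% and 35.8% near 0. Transcripts more than 1 above the median of the other rows were scarce, with 23 (2.3%) in KO ESC and 29 (2.9%) in KO NPC, against 9.41% and 6.94% of the other rows. Those more than 2 below it made up 3.1% and 3.4% of the stretch and 2.24% and 2.42% of the other rows. Among the 1000, 9 were at 0 in both KO ESC libraries and 6 in both WT ESC libraries, and 10 and 6 in NPC. With these at the bound set by 3 counts per library the shifts stayed at -0.57 and -0.50.

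**Figure D2:**
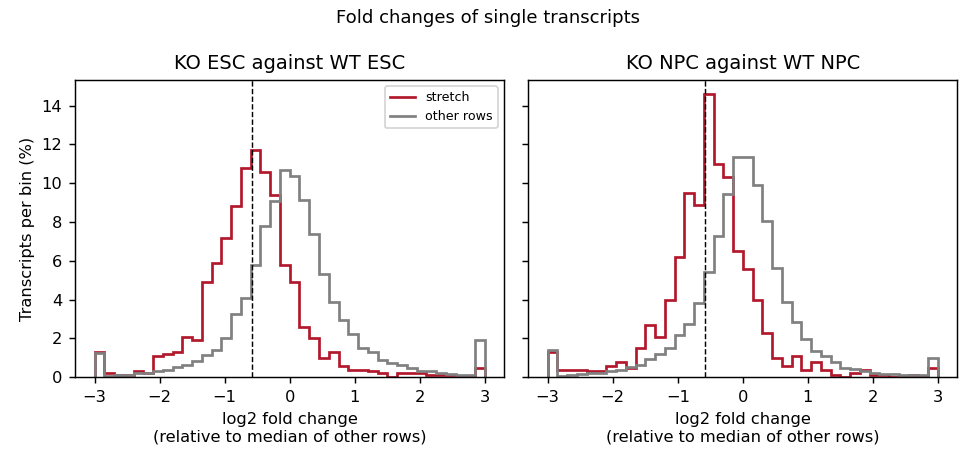
Share of transcripts (vertical axis, percent per bin) by log2 fold change of KO against WT, relative to the median of the other rows (horizontal axis; values past 3 either way are in the outermost bins), for the 1000 transcripts of the stretch and 18918 in other rows. The dashed line marks log2(2/3); the stretch peaks between -0.60 and -0.45 in both cell types, at 11.7% per bin in ESC and 14.6% in NPC.

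The size of the shift varied little along the rows in windows of 100 transcripts, and more in smaller windows. The 1000 transcripts were divided, in row order, into 10 windows of 100, and each window's median was taken relative to the other rows. In KO ESC against WT ESC the windows stood, in row order, at -0.71, -0.59, -0.58, -0.58, -0.55, -0.59, -0.56, -0.50, -0.50 and -0.68. In KO NPC against WT NPC they stood at -0.54, -0.52, -0.55, -0.48, -0.50, -0.44, -0.42, -0.54, -0.50 and -0.51. That every window lay low follows from how the stretch was chosen. The first and the last were the lowest in ESC but not in NPC. The SD of the window medians was 0.068 in ESC and 0.043 in NPC, against 0.071 and 0.081 for the 20 neighbouring windows, 10 on each side, and 0.19 and 0.17 for all 189 windows outside, which include other shifted rows. Windows of 50 ranged more widely, from -0.83 to -0.37 in KO ESC and from -0.60 to -0.40 in KO NPC. All 10 windows of 100 lay below -0.4 in both cell types. Outside the stretch 2 of 189 windows did, and those 2, which adjoin each other, were low in HET ESC (-0.50 and -0.53) and HET NPC (-0.41 and -0.54) as well. A further pair of adjoining windows, rows 35699 to 36245, lay below -0.4 in KO NPC alone, at -0.68 and -0.63, lower than any window of the stretch there. In KO ESC that pair stood at -0.36 and -0.31, and it stood at -0.16 and -0.050 in HET ESC and -0.19 and -0.15 in HET NPC. In all, 6 of 189 windows outside lay below -0.25 in KO in both cell types. In HET all 10 windows lay below 0 in both cell types, as did 48.7% of the windows outside. They ran from -0.17 to -0.050 in ESC and from -0.19 to -0.044 in NPC. The 20 neighbouring windows overlapped these ranges, from -0.14 to 0.080 in HET ESC and from -0.11 to 0.057 in HET NPC. The first window of the stretch was among its lowest in HET too. KO lay below HET in every window of the stretch, with differences of -0.60 to -0.36 in ESC and -0.50 to -0.28 in NPC. This was not particular to the stretch: 10 of 189 windows outside lay below -0.25 for KO against HET in both cell types, among them all windows from row 39943 to row 42875, at -0.45 to -0.29 in ESC and -0.49 to -0.34 in NPC.

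**Figure D3:**
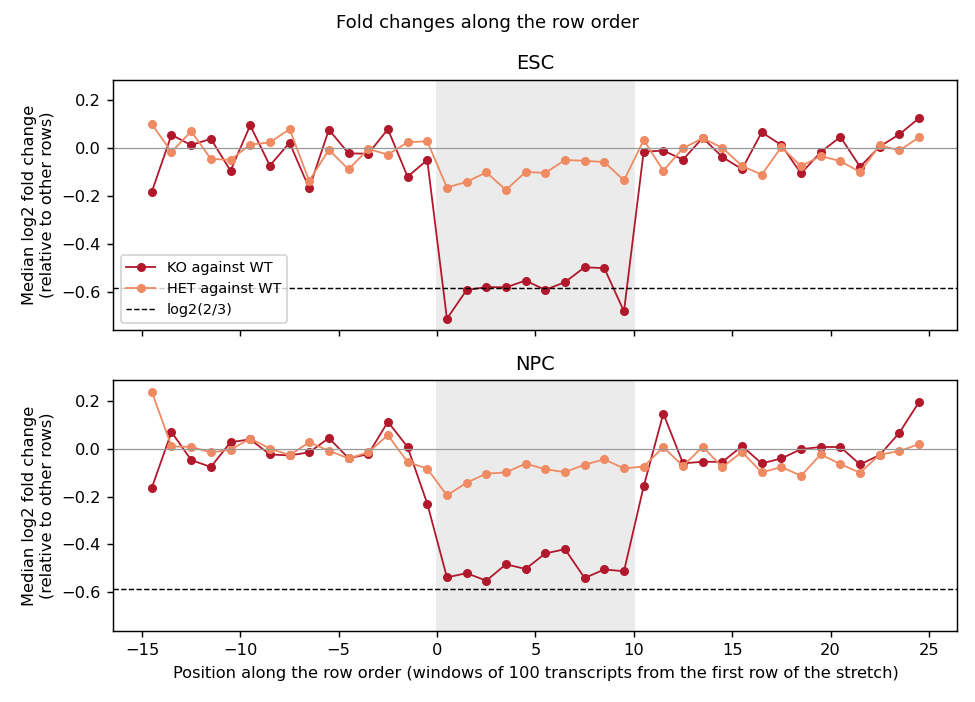
Median log2 fold change against WT, relative to the other rows (vertical axis), in windows of 100 transcripts along the row order (horizontal axis, counted in windows from the first row of the stretch), for KO and HET in ESC (top) and NPC (bottom). The stretch is shaded and the dashed line marks log2(2/3). KO lies between -0.71 and -0.42 inside the shading. In the nearest 10 windows on each side it lies between -0.23 and 0.15, and windows further out are drawn as well.

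The change at the limits came within groups of 25 transcripts at the end and less sharply at the start, and the end lay past the last row of the stretch. Just inside the first row, the first 25 transcripts had a median of -0.26 in ESC and -0.46 in NPC for KO against WT, and the next 25 had -0.84 and -0.65. The 25 just before it stood at -0.061 in ESC and -0.28 in NPC, so that in NPC the fold changes were already below 0 before the first row. At the other limit, the last 25 transcripts inside had a median of -0.60 in ESC and -0.43 in NPC. The 25 just after it still stood at -0.36 and -0.47, and the 25 after those at -0.45 and -0.43, whereas the following 25 stood at 0.19 and 0.050. The low section thus ran past uc009nwt.1 by these 2 groups in both cell types, and the next group lay above the median of the other rows. The first of the transcripts that define the limits lay nearer to WT than the median of the stretch, and the last lay further below it. uc009ktq.2 had 66.4 and 81.8 CPM in KO ESC against 99.3 and 82.3 in WT ESC, and 55.1 and 51.0 in KO NPC against 55.4 and 65.6 in WT NPC, with log2 fold changes of -0.29 and -0.19. uc009nwt.1 had 5.31 and 7.74 CPM in KO ESC against 11.6 and 11.6 in WT ESC. It had 9.08 and 6.34 CPM in KO NPC against 16.3 and 8.55 in WT NPC, which overlap. Its log2 fold changes were -0.83 and -0.69. Neither uc009ktq.2 nor uc009nwt.1 was called by edgeR in KO against WT. Their SE in ESC was 0.15 and 0.38, so their distance from the median of the stretch is uncertain.

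A fit of 2 cut points that best part a low from a level section of the rows put the end in nearly the same place in both cell types, but not the start. It started from the stretch, used as many rows again on each side, and weighed the absolute deviation from a median inside and a median outside. In ESC the low section ran from row 47469 to row 49959, and in NPC from row 47363 to row 49953. The end agreed within 6 rows between the cell types. They share no library, but both fits started from the same stretch. The NPC were also derived from the ESC, so these fits are not independent. The end lay 51 transcripts of that level after the last row of the stretch in ESC and 46 in NPC. The start lay 12 such transcripts inside the first row in ESC and 30 before it in NPC. The median fold changes between the fitted limits were -0.52 and -0.50, not set against other rows. With higher minimum levels the end in ESC moved back, to row 49912 at a mean CPM of 5 and row 49906 at 10, while in NPC it did not move, so that the ends of the cell types were then further apart.

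**Figure D4:**
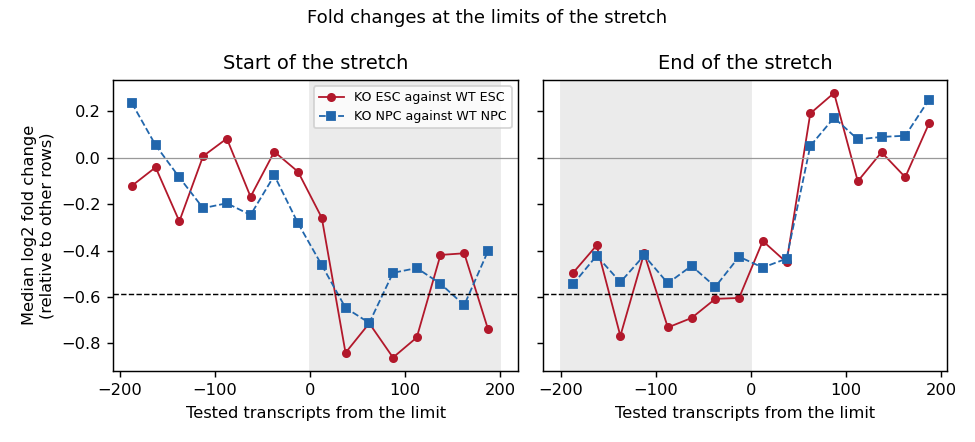
Median log2 fold change of KO against WT, relative to the other rows (vertical axis), in groups of 25 transcripts (mean CPM 2 or more), counted from the first (left) and the last (right) row of the stretch (horizontal axis), in ESC and NPC. The stretch is shaded and the dashed line marks log2(2/3); past the end, the values stay between -0.47 and -0.36 for 2 groups and then stand at 0.19 and 0.050.

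The shift was of similar size in abundant and scarce and in long and short transcripts in ESC, and varied more in NPC. In 4 equal groups of the members by mean CPM, from lowest to highest, it was -0.54, -0.64, -0.58 and -0.54 in KO ESC. In KO NPC it was -0.41, -0.45, -0.59 and -0.53, so that the less abundant transcripts stood nearer to WT. In 4 groups by length it ran from -0.60 to -0.55 in KO ESC and from -0.55 to -0.46 in KO NPC. The HET shift was below 0 in each of these groups, from -0.17 to -0.078 in ESC and from -0.13 to -0.060 in NPC. Scatter narrowed with level: the middle 50% of fold changes spanned 1.07 in the least and 0.50 in the most abundant group in KO ESC, and 1.12 and 0.41 in KO NPC. The members had a median length of 2258.5 bases, against 2135 in the other rows. In a check chosen after seeing the data, on the 151 members whose counts were whole numbers in every library (within 1e-06), that is, with no sign of reads split between transcripts, the shift was -0.56 in KO ESC and -0.51 in KO NPC.

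**Figure D5:**
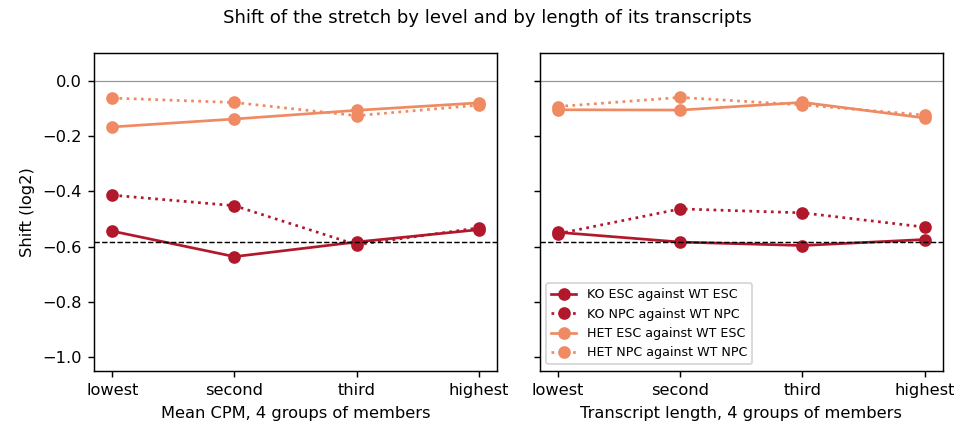
Shift of the stretch relative to other rows of the same range (vertical axis, log2) in 4 groups of its transcripts by mean CPM (left) and by length (right), for KO and HET against WT in ESC (solid) and NPC (dotted). The dashed line marks log2(2/3); the KO values lie between -0.64 and -0.41 and the HET values between -0.17 and -0.060.

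Transcript by transcript, both KO libraries lay below both WT libraries for 549 of the 1000 members in ESC, where 22.6% of all transcripts did, and for 601 in NPC, where 27.2% did. Both held for 386 members, or 38.6%, against 10.1% of all transcripts. The opposite, both KO libraries above both WT libraries, was seen for 43 members in ESC (25.3% of all transcripts) and 57 in NPC (26.5%), and in both cell types for 8 (10.5%). KO lay below HET without overlap for 506 members in ESC (21.1% of all transcripts) and 534 in NPC (21.5%), and above it for 52 (23.6%) and 54 (22.8%). HET lay below WT without overlap for 231 members in ESC (18.6%) and 297 in NPC (22.7%), shares of 23.1% and 29.7%, and above WT for 125 (20.1%) and 154 (21.2%). These comparisons are the ones the stretch was chosen on, so nothing further is read from the counts. Beyond the common shift, single members did not follow each other more closely than other transcripts: the fold changes of KO ESC and KO NPC correlated across the 1000 members at r = 0.18, and across the 18918 others at r = 0.17. Transcripts are not independent replicates, and these values only describe the libraries.

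At 2 libraries per group few single transcripts passed the test. The stretch was chosen on these comparisons, so the counts of its members between genotypes support nothing about it. In KO ESC 43 of the 1470 tested members were lower than in WT ESC (quasi-likelihood test of edgeR over 30021 transcripts, adjusted p under 0.05) and 0 were higher, where 0.49% and 0.716% of all transcripts were. In KO NPC 10 were lower and 0 higher, where 0.137% and 0.0766% of all transcripts were. At an unadjusted p under 0.05, 331 members (22.5%) were lower and 20 (1.36%) higher in KO ESC, where 6.42% and 7.87% of all transcripts were. In KO NPC 333 (22.7%) were lower and 12 (0.816%) higher, where 6.80% and 5.85% of all transcripts were. DESeq2 called 246 lower and 10 higher in ESC (4.06% and 5.03% of all transcripts) and 212 lower and 7 higher in NPC (3.80% and 3.67%). Limma on TPM called 41 of 1124 members lower in ESC (0.618% of all transcripts) and 51 in NPC (1.11%), and 0 higher (0.559% and 0.322%). Of the 43 members called in ESC, 40 had a fold change below 0 in NPC, with a median of -0.64 there. All 10 called in NPC had one below 0 in ESC, with a median of -0.55. Of the 1000 members at a mean CPM of at least 2, 82.0% were below 0 in KO NPC and 83.3% in KO ESC. Low values in the other cell type are thus common to the stretch, and such shares were not taken for called transcripts in other rows. The edgeR counts fell with each library left out. In ESC, 0 were left without either KO ESC library, 11 or 32 when WT ESC replicate 2 or 1 was left out, and 7 to 16 without any one of the others. In NPC, 0 were left without any one of the KO NPC, WT NPC, KO ESC or HET ESC libraries, 1 without either HET NPC library and 2 without either WT ESC library. In HET against WT and in KO against HET, edgeR called 0 members in both cell types. There 96 members (6.53%) had an unadjusted p under 0.05 for HET in each cell type, where 8.67% of all transcripts in ESC and 7.90% in NPC had one. For KO against HET 279 (19.0%) in ESC and 269 (18.3%) in NPC had one, where 9.30% and 7.38% of all transcripts had. DESeq2 called 30 (2.04%) for HET in each cell type, where it called 3.52% and 3.19% of all transcripts. It called 154 (10.5%) and 100 (6.80%) for KO against HET, where it called 4.11% and 2.43% of all transcripts. Limma called 0 members throughout. Of all transcripts, limma called 0.0582% and 0.0492% for HET in ESC and NPC, and 0.0134% and 0.0582% for KO against HET. Of all transcripts, edgeR called 0.0133% lower and 0.02% higher in HET against WT ESC, and 0% and 0.00999% in HET against WT NPC. For KO against HET it called 0% lower and 0.00333% higher in ESC, and 0.00666% lower and 0% higher in NPC.

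The members named here are those called with the lowest log2 fold change, at a mean CPM of at least 5 and no overlap. uc009npq.1 had 1.0 and 1.22 CPM in KO ESC, 4.90 and 5.28 in HET ESC and 14.1 and 15.3 in WT ESC, so the 3 genotypes did not overlap. Its log2 fold change in KO against WT ESC was -3.72 (SE 0.52). In NPC, where it had 5.09 and 2.43 CPM in KO, 4.33 and 8.41 in HET and 4.62 and 2.94 in WT, the genotypes overlapped and its log2 fold change in KO was -0.0087. uc009lks.1 had 9.92 and 11.7 CPM in KO ESC, 29.3 and 45.0 in HET ESC and 33.3 and 59.2 in WT ESC. Its log2 fold change in KO against WT ESC was -2.10 (SE 0.35), while in NPC it had 54.9 and 60.6 CPM in KO and 56.6 and 36.7 in WT, a log2 fold change of 0.31. These 2 transcripts thus lay further below WT than the median of the stretch in ESC, and close to WT or above it in NPC. The difference between the cell types was not called for any member by edgeR or limma (0 calls each). Of all transcripts, edgeR called 0.00333% lower and 0% higher, and limma called 0.00448% lower and 0% higher. At an unadjusted p under 0.05 the difference was seen for 111 members (7.55%) and 9.16% of all transcripts. DESeq2 called it for 33 members (2.24%) and 3.35% of all transcripts.

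In NPC the same rule named uc009ngi.1 and uc009ltm.2. uc009ngi.1 had 138 and 189 CPM in KO NPC, 432 and 339 in HET NPC and 606 and 749 in WT NPC, in 3 separate ranges. Its log2 fold change in KO against WT NPC was -2.05 (SE 0.19). In ESC it had 386 and 356 CPM in KO, 535 and 547 in HET and 582 and 611 in WT, again with no overlap, and a log2 fold change of -0.69 in KO that was not called. uc009ltm.2 had 11.4 and 13.4 CPM in KO NPC, 35.5 and 30.8 in HET NPC and 34.5 and 36.2 in WT NPC, with a log2 fold change of -1.51 in KO against WT NPC (SE 0.17). In ESC it stood at 34.0 and 36.9 CPM in KO and 36.5 and 36.6 in WT, which overlap. Each of these 4 calls, of uc009npq.1, uc009lks.1, uc009ngi.1 and uc009ltm.2, ended without either KO library of its cell type and without some others, while the log2 fold changes stayed between -3.86 and -1.40.

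Differentiation was not used to choose the stretch and could be tested. The shares of its members called were close to those of all transcripts. Against KO ESC, KO NPC had 96 members higher and 85 lower, or 6.53% and 5.78% of those tested, where 6.59% and 6.42% of all transcripts were, by edgeR. Against HET ESC, HET NPC had 100 higher and 74 lower, or 6.80% and 5.03%, where 6.3% and 5.16% of all transcripts were. Against WT ESC, WT NPC had 100 higher and 80 lower, or 6.80% and 5.44%, where 6.83% and 5.33% of all transcripts were. These counts depended on the libraries compared. The KO count of 181 was 101 or 102 without either KO ESC library and 85 or 104 without KO NPC replicate 1 or 2. The HET count of 174 was 88 or 97 without HET ESC replicate 1 or 2 and 99 or 72 without HET NPC replicate 1 or 2. The WT count of 180 was 112 without WT ESC replicate 2 and 90 or 76 without WT NPC replicate 1 or 2. Without overlap between the libraries, 326 of the 1000 were higher and 302 lower in KO NPC (31.3% and 33.9% of all transcripts), 316 and 316 in HET NPC (30.8% and 31.8%), and 294 and 291 in WT NPC (31.1% and 28.9%). The median shift of the stretch between NPC and ESC was 0.079 in KO (pairs of libraries from 0.038 to 0.10), 0.021 in HET (pairs from -0.0098 to 0.034) and 0.0012 in WT (pairs from -0.049 to 0.019). Single windows varied more than the whole, from -0.12 to 0.27 in KO, from -0.15 to 0.17 in HET and from -0.18 to 0.15 in WT, much as windows outside did (SD 0.17, 0.13 and 0.14). Limma on TPM, which was not scaled further between libraries, gave another balance, with 227 members higher and 50 lower in KO NPC, 213 and 52 in HET NPC and 243 and 47 in WT NPC. All transcripts showed a like tilt under limma. In KO NPC 20.2% of the members were higher and 4.45% lower, against 19.1% and 4.72% of all transcripts. In HET NPC it was 19.0% and 4.63% of the members, against 18.3% and 3.96% of all transcripts, and in WT NPC 21.6% and 4.18%, against 22.6% and 3.67%. The summed level of the stretch was higher in NPC than in ESC relative to the other rows in each genotype, by 0.43 in KO, 0.26 in HET and 0.27 in WT on the log2 scale, with every pair of libraries above 0.

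Some members changed far more between WT NPC and WT ESC than any shift of the whole stretch. uc009mzd.2 had no counts in either WT NPC library against 60.8 and 41.4 CPM in WT ESC, which is at least 249-fold lower with 3 counts per library as the floor (edgeR adjusted p = 0.00185). uc009lnz.1 fell to 0 and 1.54 CPM in WT NPC, against 43.3 and 36.0 CPM in WT ESC (edgeR adjusted p = 0.0133). uc009ltk.2 rose to 13.1 and 16.8 CPM in WT NPC, against 0.119 and 0.414 CPM in WT ESC, by 5.73 on the log2 scale (SE 0.59, edgeR adjusted p = 0.0028). uc012gbp.1 had 8.32 and 12.8 CPM in WT NPC and no counts in either WT ESC library, at least 31.6-fold higher with the same floor (adjusted p = 0.0401 by edgeR). Its call was lost when any one WT, HET or KO NPC library was left out, with an adjusted p of up to 0.134.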

How the data were processed

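Estimated counts and TPM values per transcript were deposited by the authors, per the file headers, with transcript and effective lengths. The submitters' processing notes name cutadapt 1.16, kallisto and build mm9, without roles, and no kallisto version. The libraries were made with a stranded SMARTer kit after depletion of ribosomal RNA, per the labels' protocols. Transcripts with equal counts (to 2 decimals) in all libraries and a summed count of at least 10 were merged. Estimated counts were rounded, kept where filterByExpr passed them (minimum count 10), given TMM factors and fitted with edgeR 4.0.16 in R 4.3.3 (glmQLFit, robust, all 12 libraries, a mean per group, 6 residual degrees of freedom), tested two-sided with Benjamini-Hochberg adjustment over 30021 transcripts. The common dispersion was 0.35. The standard error is the log2 fold change over the square root of F. DESeq2 1.42.0 and limma 3.58.1, on log2(TPM + 0.5) at a mean TPM of at least 1, were alternatives. The procedures were tested on simulated data.

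A shift is a median over members less that over the other rows. The stretch, the named transcripts' rule and the settings were chosen with earlier results of these data known. The rule names, per KO comparison with WT and for NPC against ESC in WT, up to 2 members each that rose and fell most among those called, with a mean CPM of at least 5 and no overlap, plus the 2 of highest mean CPM and the limits. No member of the stretch met it for a rise in KO. Chd8 and marker genes were not checked, because identifiers matched no name table, and no sequences are shown.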

Additional observations from a re-analysis of the deposited data

How the results depend on the processing

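The sign of the KO and HET shifts against WT and of KO against HET held under every alternative tried. The stretch was chosen on these same libraries, so for the KO shifts a held sign follows largely from that choice. Leaving out 1 library at a time, the shift ran from -0.57 to -0.56 for KO against WT in ESC, from -0.51 to -0.49 in NPC, from -0.11 to -0.088 and -0.096 to -0.075 for HET, from -0.46 to -0.44 and -0.42 to -0.39 for KO against HET, and for NPC against ESC from 0.060 to 0.079 in KO, 0.00025 to 0.029 in HET and -0.031 to 0.0022 in WT. Counts of members called ran from 0 to 32 and 0 to 2 for KO against WT in ESC and NPC, 0 to 1 and 0 to 0 for HET, 0 to 1 and 0 to 0 for KO against HET, 85 to 187 in KO, 72 to 187 in HET and 76 to 155 in WT for NPC against ESC, and 0 to 1 and 0 to 0 for the differences between cell types in KO and HET.

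Other values moved by more than 0.019, the SD of a difference between replicates. With no minimum CPM the shift was -0.54 for KO against WT ESC, -0.43 and -0.37 for KO against HET in ESC and NPC, and 0.052 and 0 for NPC against ESC in KO and HET. At a minimum of 5 it was -0.53 for KO against WT NPC, -0.42 for KO against HET NPC and reversed to -0.019 for NPC against ESC in HET. At 10 it was -0.54, -0.44 and 2.97e-06 for these 3, and -0.47 for KO against HET ESC. At 20 it was -0.53 and -0.55 for KO against WT in ESC and NPC, -0.43 for KO against HET NPC, and 0.10, 0.071 and 0.047 for NPC against ESC in KO, HET and WT. The fitted end in ESC was row 49948 with no minimum, 49912 at 5 and 49906 at 10. Limma on TPM gave -0.51 and -0.48 for KO against WT, -0.39 and -0.38 for KO against HET, -0.0058 (reversed) for NPC against ESC in HET, and 51 calls for KO against WT NPC and 277, 265 and 290 for NPC against ESC in KO, HET and WT. The ratio of sums gave -0.70 and -0.54 for KO, -0.20 and -0.22 for HET, -0.50 and -0.33 for KO against HET, and 0.43, 0.26 and 0.27 for NPC against ESC. Without the large members it gave -0.71 and -0.56, -0.18 and -0.19, -0.53 and -0.36, and 0.43, 0.26 and 0.27. Of the alternatives chosen after seeing the data, neighbouring rows as baseline gave -0.55 for KO ESC, -0.074 and -0.055 for HET, and 0.042, -0.0015 (reversed) and -0.029 for NPC against ESC in KO, HET and WT. Whole-number counts gave -0.072 for HET NPC, -0.42 and -0.46 for KO against HET, and 0.15, 0.11 and 0.041 for NPC against ESC. Windows of 50 ran from -0.83 to -0.37 in KO ESC and down to -0.60 in KO NPC. The causes were not tested.

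Counts of calls were less stable than the shift. DESeq2 called 256 and 219 members for KO against WT, or 17.4% and 14.9%, where it called 9.09% and 7.46% of all transcripts. It called 30 and 30 for HET and 154 and 100 for KO against HET, with the shares given above. For NPC against ESC it called 328, 323 and 316 in KO, HET and WT. These are 22.3%, 22.0% and 21.5% of members, close to the 23.2%, 22.2% and 21.9% of all transcripts. For the differences between cell types it called 33 and 9, or 2.24% and 0.612%, where it called 3.35% and 0.879% of all transcripts. For the other settings here, the share over all transcripts was not taken. A fit of 1 cell type alone called 0 and 0 for KO against WT. Without the low-count filter edgeR called 26 for KO ESC, and with TMM from outside the stretch 18 for KO NPC and 1 for KO against HET ESC. With the replicate number as a block within each cell type it called 0 and 0 for KO against WT, 112, 107 and 94 for NPC against ESC, and the shift for NPC against ESC in WT was -0.028. Same-numbered replicates deviated together at r = -0.078 to 0.082 only. That shows no strong shared deviation. It cannot tell whether same-numbered libraries were prepared together, which the labels do not state.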

Other observations

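Some values stood outside the comparisons above and were picked out after they had been seen. uc009mzd.2, which had no counts in either KO NPC library or either WT NPC library, had 15.1 and 11.4 CPM in HET NPC, and 35.7 and 47.1 CPM in KO ESC. Its difference between HET NPC and WT NPC was not called (edgeR adjusted p = 0.161). Outside the stretch, the pair of adjoining windows that were as low in KO in both cell types covered rows 15377 to 15854, at -0.57 and -0.56 in KO ESC and -0.49 and -0.46 in KO NPC. Unlike the stretch, they stood about as low in HET, at -0.50 and -0.53 in HET ESC and -0.41 and -0.54 in HET NPC. The difference between these windows and the stretch in HET was not tested.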
